A study of Homo sapiens with 12 samples.

Results

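The 35 genes described here build cholesterol and fatty acids or control that synthesis. They were taken as a list of symbols of the SREBP pathway. No measured value entered that rule, but the list was chosen with earlier results of these data known. All 35 were found among the 16451 gene symbols with at least 1 coding sequence (CDS) read. They were sorted into a sterol arm of 18 enzymes, a fatty acid arm of 11 enzymes, 4 regulators and 2 sterol transport genes. The cells were IMR90, a widely used human fibroblast line grown from normal lung. They were assayed while proliferating (Pro) or in replicative senescence (Sen), the growth arrest reached here by passaging until the cells were exhausted. Each state gave 3 lysates, and each lysate gave 1 RNA-seq library of poly(A) RNA and 1 Ribo-seq library of ribosome-protected fragments (RPFs, or footprints), so that 12 libraries formed 4 groups of 3. Cells of both states grew in supplemented MEM that contained FBS at 10%, a serum that itself brings lipids, and no group without serum lipids was part of the comparison. The labels name no drug or genetic change in either state. The labels name 2 isolates of the line without assigning samples to them, so isolate and state cannot be told apart, and the replicates are described as independently grown. The proliferating RNA-seq tables, and not the senescent ones, carry in their names the tag DSMO, which resembles DMSO, a common solvent for drugs. The labels do not mention it, and whether those cultures received a vehicle is not known.

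Animal cells make cholesterol from acetyl-CoA through mevalonate, isoprenoid units, squalene and lanosterol, and they make fatty acids from the same acetyl-CoA through malonyl-CoA, followed by elongation and desaturation. The SREBP transcription factors, encoded by SREBF1 and SREBF2, are held in the endoplasmic reticulum by SCAP and the INSIG proteins while sterols are plentiful. When membrane sterol is low, SCAP escorts them to the Golgi, where they are cut and released to the nucleus, SREBF2 being linked mainly to sterol genes and SREBF1 mainly to fatty acid genes. SREBPs bind sterol regulatory elements next to sites for the factors NF-Y and Sp1, and fibroblasts in culture use the pathway chiefly for membrane lipid.

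RefSeq promoter windows, from 250 bases before to 50 bases after an annotated transcription start (GRCh38.p14), were matched for 31 of the 35 genes, 9 of them with several windows. ACAT2, FASN, FDFT1 and SQLE had no match. The box CCAAT of NF-Y (ATTGG on the other strand) was present in windows of 13 of 15 sterol arm genes, or 86.7%, and of 6 of 10 fatty acid arm genes, or 60.0%, against 39.7% of 27305 genes in the same table and 43.1% of the 10110 of them that were tested for mRNA. Its counts within a window ran up to 5, in MVK and NSDHL. The Sp1 box GGGCGG, searched like the others on both strands, was found for 29 of the 31 genes (93.5%), against 77.6% of the tested genes, and 6 of 31 (19.4%) held the E-box CACGTG, against 12.5%. The sterol regulatory element was searched as TCACNCCAC (GTGGNGTGA), and these letters were in the windows of SREBF2 alone (3.23% of the 31 genes, against 1.49% of the tested genes). A gene counted when any of its windows held the letters on either strand, hits of different motifs being counted separately where they overlapped. A match is a description of letters and not of a bound factor.

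The following 6 stretches are the upstream part of such windows from 15 bases before the outermost box to 15 bases after it, written 5′ to 3′ in the sense of the gene with the CCAAT or ATTGG boxes and the sterol regulatory element in capitals. MSMO1 (chr4:165327469-165327654, plus strand), DHCR7 (chr11:71448422-71448502, minus strand) and MVK (chr12:109573569-109573767, plus strand) are shown because they were among the sterol arm mRNAs that rose most. EBP (chrX:48521602-48521797, plus strand) is a sterol arm gene without a called change. SREBF2 (chr22:41832957-41833018, plus strand) holds the sterol regulatory element, and SCD (chr10:100346989-100347066, plus strand) is the fatty acid arm mRNA that fell most.
MSMO1: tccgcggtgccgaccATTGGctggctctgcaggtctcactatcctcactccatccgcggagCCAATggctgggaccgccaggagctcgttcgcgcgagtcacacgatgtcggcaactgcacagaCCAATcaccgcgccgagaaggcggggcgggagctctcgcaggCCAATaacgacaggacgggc
DHCR7: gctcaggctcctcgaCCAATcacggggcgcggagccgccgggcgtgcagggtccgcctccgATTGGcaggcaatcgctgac
MVK: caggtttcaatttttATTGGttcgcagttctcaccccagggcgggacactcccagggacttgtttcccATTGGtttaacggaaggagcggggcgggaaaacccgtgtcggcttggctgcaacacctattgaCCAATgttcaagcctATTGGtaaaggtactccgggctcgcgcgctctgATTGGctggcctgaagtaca
EBP: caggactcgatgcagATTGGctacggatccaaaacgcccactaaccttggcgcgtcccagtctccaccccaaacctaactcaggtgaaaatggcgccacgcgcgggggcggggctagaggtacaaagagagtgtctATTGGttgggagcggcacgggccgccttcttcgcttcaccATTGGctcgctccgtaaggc
SREBF2: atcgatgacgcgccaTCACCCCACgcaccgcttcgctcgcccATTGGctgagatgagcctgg
SCD: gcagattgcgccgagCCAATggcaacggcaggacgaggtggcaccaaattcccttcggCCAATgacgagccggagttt

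The boxes were thus present in genes of both arms and in genes that rose, fell or had no called change. The upstream stretch of MSMO1 held 4 of them, that of MVK 5, that of EBP 3, and those of DHCR7 and SCD 2 each.

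Levels are given as CPM, read counts scaled to the depth of each library with edgeR's TMM factors, and values are listed for lysates 1, 2 and 3, proliferating first. The mRNA level of a gene counts all its RNA-seq reads in CDS and both UTRs, and its RPF level counts the Ribo-seq reads in CDS alone. A gene was called when the Benjamini-Hochberg adjusted p of edgeR's quasi-likelihood test over all genes tested was under 0.15, the 15% false discovery rate of the published analysis. RNA-seq libraries held 7902427 to 14144455 reads in these regions. Ribo-seq libraries held 54421 CDS reads in Pro 1 and 54708 in Sen 2, and from 583798 to 1718521 in the other 4, so that 3 counts, taken as the limit that a count of 0 allows, came to 52.1 CPM in Pro 1, 52.7 CPM in Sen 2 and at most 5.83 CPM elsewhere. The fit weights libraries by their depth, for which reason a fitted fold change can differ from the ratio of mean CPM. Such limits cover counting error only. The 8 fibroblast markers summed to between 28239 and 31759 CPM in proliferating and between 26721 and 29966 CPM in senescent RNA-seq libraries. All 5 epithelial and all 5 adipocyte markers, 3 of 4 endothelial and 3 of 4 immune markers had at most 50 reads in every library. The exceptions, TEK and CD68, both rose, which took the summed endothelial list from at most 62.1 CPM to at least 93.7 CPM and the immune list from at most 21.1 to at least 31.3 CPM, and a part of this in the lipid genes was not tested. MKI67 and LMNB1, which mark dividing cells, fell, and CDKN1A, a brake of the cell cycle, rose in both library types. In such bulk lysates, fewer cells with an mRNA and less of it per cell cannot be told apart.

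In the sterol arm the senescent cells had more mRNA at nearly every step. Of 18 members 15 rose and 0 fell, or 83.3% against 36.6% of 12787 genes called higher and 37.0% called lower. The median log2 fold change (senescent over proliferating) was 0.45, with a range from -0.01 to 0.89, against -0.01 for all genes tested. In 14 members every senescent library lay above every proliferating library, a pattern found in 33.5% of all genes, and in 0 members all lay below, against 34.2%. Members not called in mRNA were ACAT2, HSD17B7 and EBP. Scaling by library totals without TMM, which shifted the median of all genes by -0.11 in mRNA and -0.14 in RPF, left 12 members higher and 0 lower, the calls of PMVK (log2 fold change 0.12), LSS (0.12) and TM7SF2 (0.22) being lost.

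**Figure D1:**
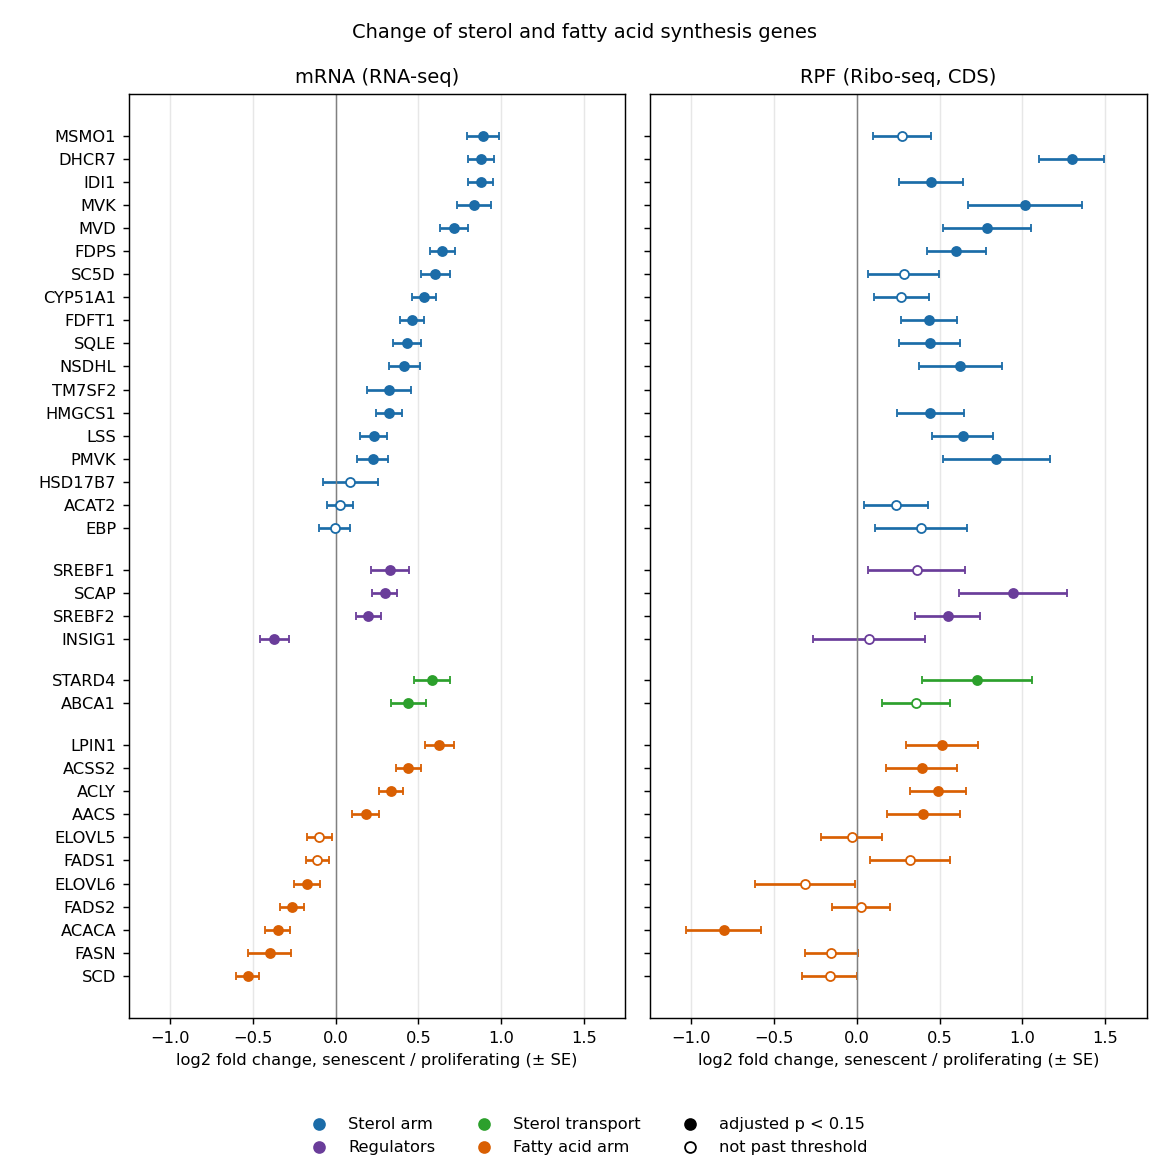
Log2 fold change, senescent over proliferating, of every member in mRNA (left) and RPF (right), with bars of ± 1 SE from the fit of 3 against 3 libraries, grouped by role. Filled points passed an adjusted p of 0.15. Sterol arm points lie right of or at 0 in both panels, from -0.01 to 0.89 in mRNA, and fatty acid arm points lie on both sides, from -0.53 to 0.63. TM7SF2 and HSD17B7 have no RPF point because they were not tested there.

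Early mevalonate steps were measured through 7 genes, of which 6 rose in mRNA, with IDI1 and MVK foremost. IDI1, the isomerase that interconverts the isoprenoid units IPP and DMAPP, stood at 40.9, 42.2 and 44.2 CPM in the proliferating and 76.4, 79.5 and 78.2 CPM in the senescent RNA-seq libraries (log2 fold change 0.88 ± 0.08 SE, adjusted p = 1.12e-09). Its groups were far apart relative to their spread. IDI1 footprints were at 86.8, 78.7 and 81.1 CPM and 112, 141 and 101 CPM, again without overlap (0.45 ± 0.19 SE, adjusted p = 0.0531). MVK, mevalonate kinase, went from 13.2, 13.5 and 14.0 CPM to 24.5, 23.0 and 25.3 CPM in mRNA, a 1.78-fold rise (adjusted p = 2.42e-07). MVK footprints numbered 1, 8 and 27 in the proliferating and 48, 1 and 14 in the senescent libraries, or 17.4, 11.9 and 16.1 CPM against 32.2, 17.6 and 27.2 CPM, and the fitted fold was 2.02 (adjusted p = 0.013). The 2 shallow libraries each gave MVK a lone read, so its RPF call rested on the other 4.

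MVD, the decarboxylase that makes IPP, had 36.6, 35 and 39.3 CPM of mRNA in proliferating and 63.4, 55.2 and 64.0 CPM in senescent cells (0.72 ± 0.09 SE, adjusted p = 1.77e-07). Its footprints were at 34.7, 28.2 and 34.0 CPM and 52.3, 87.9 and 58.3 CPM (0.79 ± 0.27 SE, adjusted p = 0.0125). All senescent values of MVD lay above all proliferating values in both library types. FDPS, which joins isoprenoid units into farnesyl pyrophosphate, rose from 97.6, 89.8 and 88.9 CPM to 145, 152 and 133 CPM in mRNA (0.64 ± 0.07 SE, adjusted p = 1.3e-07). FDPS footprints, at 191, 116 and 109.7 CPM and 181, 123 and 175 CPM, overlapped because Pro 1, with 11 reads, was the highest of all, while the fitted rise was 1.52-fold (adjusted p = 0.00403). FDPS, like HSD17B7 and SCD, has processed pseudogene copies, and how reads with several placements were shared is not given in the sources used here.

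HMGCS1, which makes HMG-CoA, rose modestly, from 43.4, 40.4 and 44.7 CPM to 53.8, 55.2 and 51.2 CPM (0.32 ± 0.08 SE, adjusted p = 0.00127). HMGCS1 footprints were at 0, 75.7 and 81.1 CPM and 100.5, 123 and 107 CPM (0.44 ± 0.20 SE, adjusted p = 0.0718), the count of 0 in Pro 1 allowing up to 52.1 CPM. PMVK, phosphomevalonate kinase, changed least among the 6, from 27.7, 26.9 and 29.6 CPM to 36.5, 32.1 and 30.1 CPM of mRNA (0.22 ± 0.09 SE, adjusted p = 0.0403). The mRNA call of PMVK was lost without Pro 2 (log2 fold change 0.19, adjusted p = 0.155) or Sen 1 (0.14, adjusted p = 0.234). In footprints PMVK stood at 34.7, 25.2 and 17.3 CPM and 40.9, 35.2 and 27.2 CPM, with overlap (0.84 ± 0.32 SE, adjusted p = 0.0288). ACAT2, the cytosolic thiolase that opens the pathway, was level in mRNA at 58.2, 54.5 and 62.3 CPM and 59.9, 61.6 and 56.3 CPM (0.02 ± 0.08 SE, adjusted p = 0.799), and its RPF log2 fold change of 0.24 ± 0.19 SE was not called (adjusted p = 0.331).

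All 3 genes between farnesyl pyrophosphate and lanosterol rose in both library types. FDFT1, squalene synthase, had 117, 108 and 108 CPM of mRNA in proliferating and 155, 158 and 146 CPM in senescent cells (0.46 ± 0.07 SE, adjusted p = 6.22e-06). Its footprints were at 174, 160.3 and 158 CPM and 230.5, 105 and 214 CPM (0.43 ± 0.17 SE, adjusted p = 0.0312), Sen 2 being the lowest of the 6 with 6 reads. SQLE, squalene epoxidase and a control point of the arm, rose from 57.2, 56.0 and 67.6 CPM to 76.5, 85.4 and 81.8 CPM in mRNA (adjusted p = 9.19e-05). Footprints of SQLE went from 86.8, 93.5 and 98.4 CPM to 123, 141 and 142 CPM, with no overlap, 1.36-fold beside 1.35-fold in mRNA (adjusted p = 0.0457). LSS, lanosterol synthase, rose less in mRNA, from 99.0, 91.0 and 107 CPM to 119.6, 104 and 125 CPM (0.23 ± 0.08 SE, adjusted p = 0.0176). LSS footprints stood at 86.8, 75.7 and 100.2 CPM and 147, 87.9 and 142 CPM (0.64 ± 0.18 SE, adjusted p = 0.00336), and Sen 2 overlapped the proliferating range.

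Of the 8 genes that carry lanosterol to cholesterol, 6 rose in mRNA. MSMO1, the methyl sterol oxidase, changed most in the arm, from 43.2, 49.8 and 60.7 CPM to 89.2, 105 and 91.4 CPM (0.89 ± 0.10 SE, adjusted p = 5.73e-08). Its footprints, at 104, 153 and 132 CPM and 174, 246 and 142 CPM, overlapped and were not called (0.27 ± 0.17 SE, adjusted p = 0.205). DHCR7, the reductase of the last step, matched it in mRNA with 59.7, 59.8 and 62.4 CPM and 109, 105 and 120.5 CPM (0.88 ± 0.08 SE, adjusted p = 1.24e-09). DHCR7 had the largest RPF change of all 35 genes, at 139, 57.9 and 66.2 CPM against 153, 105 and 189 CPM, or 8, 39 and 111 reads against 228, 6 and 97 (2.46-fold, 1.30 ± 0.19 SE, adjusted p = 6.81e-08). The groups overlapped only through Pro 1, in which 8 reads gave the highest proliferating value.

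NSDHL, a sterol dehydrogenase that acts at C4, had 23.2, 26.3 and 26.2 CPM of mRNA in proliferating and 33.2, 36.9 and 31.0 CPM in senescent cells (adjusted p = 0.000583). NSDHL footprints spread widely, at 69.4, 31.2 and 48.3 CPM and 82.4, 52.7 and 36.9 CPM (0.62 ± 0.25 SE, adjusted p = 0.037). That call depended on Sen 1, without which the log2 fold change was -0.14 (adjusted p = 0.85). CYP51A1, the lanosterol demethylase, and SC5D, a sterol desaturase, rose in mRNA by 0.53 ± 0.07 SE and 0.60 ± 0.09 SE on the log2 scale. Both were not called in RPF, where CYP51A1 went from 139, 157 and 168 CPM to 191, 193 and 202 CPM without overlap (adjusted p = 0.194). TM7SF2, a sterol reductase, rose from 7.32, 7.35 and 8.66 CPM to 9.90, 9.23 and 10.2 CPM in mRNA (adjusted p = 0.0371). It had at most 16 footprints in a library and, like HSD17B7 with at most 11, was not tested in RPF. EBP, the isomerase that shifts the ring double bond, had the lowest mRNA log2 fold change of the arm, with levels of 21.0, 22.1 and 22.4 CPM and 22.6, 21.9 and 20.9 CPM (-0.01 ± 0.09 SE, adjusted p = 0.963). Its footprints were at 86.8, 31.2 and 35.8 CPM and 39.5, 70.3 and 60.3 CPM (0.39 ± 0.28 SE, adjusted p = 0.267).

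Footprints of the sterol arm moved in the same direction as mRNA but with wider errors. Of 16 members tested 11 rose and 0 fell, or 68.8% against 27.5% of 7521 genes called higher and 26.9% called lower. The median RPF log2 fold change was 0.45 against -0.00 for all genes, every one of the 16 values was above 0, and in 6 members all senescent libraries lay above all proliferating ones, against 16.8% of all genes, while in 0 members all lay below, against 15.7%. By step, 6 of 7 early genes, 3 of 3 squalene genes and 2 of 6 later genes rose. The count depended on the tool, since DESeq2 called only DHCR7 among all 35 members (log2 fold change 1.12, adjusted p = 0.0445), against 8.08% of genes called higher and 7.39% called lower by it. It also depended on the lysates, with 6 sterol arm calls without Pro 2, 7 without Pro 3 and 6 without Sen 1, and with 11 without both shallow lysates, Pro 1 and Sen 2. Calls higher over all genes fell too, from 2066 of 7521 to 1713 of 7987 without Pro 2 and 1439 of 8018 without Pro 3. They numbered 1402 of 8066 without Sen 1 and 2500 of 9213 without both shallow lysates. MVD, LSS and DHCR7 kept their RPF calls with each lysate left out in turn. Calls of IDI1 and FDFT1 were lost without Pro 2, Pro 3 or Sen 1, those of SQLE without Pro 2, Pro 3 or Sen 3, that of HMGCS1 without Pro 2, Sen 1 or Sen 3, that of PMVK without Pro 3 (log2 fold change 0.49) or Sen 1 (0.48), that of MVK without Sen 1 and that of FDPS without Pro 3. NSDHL lost its call also without Pro 2 (0.41).

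**Figure D2:**
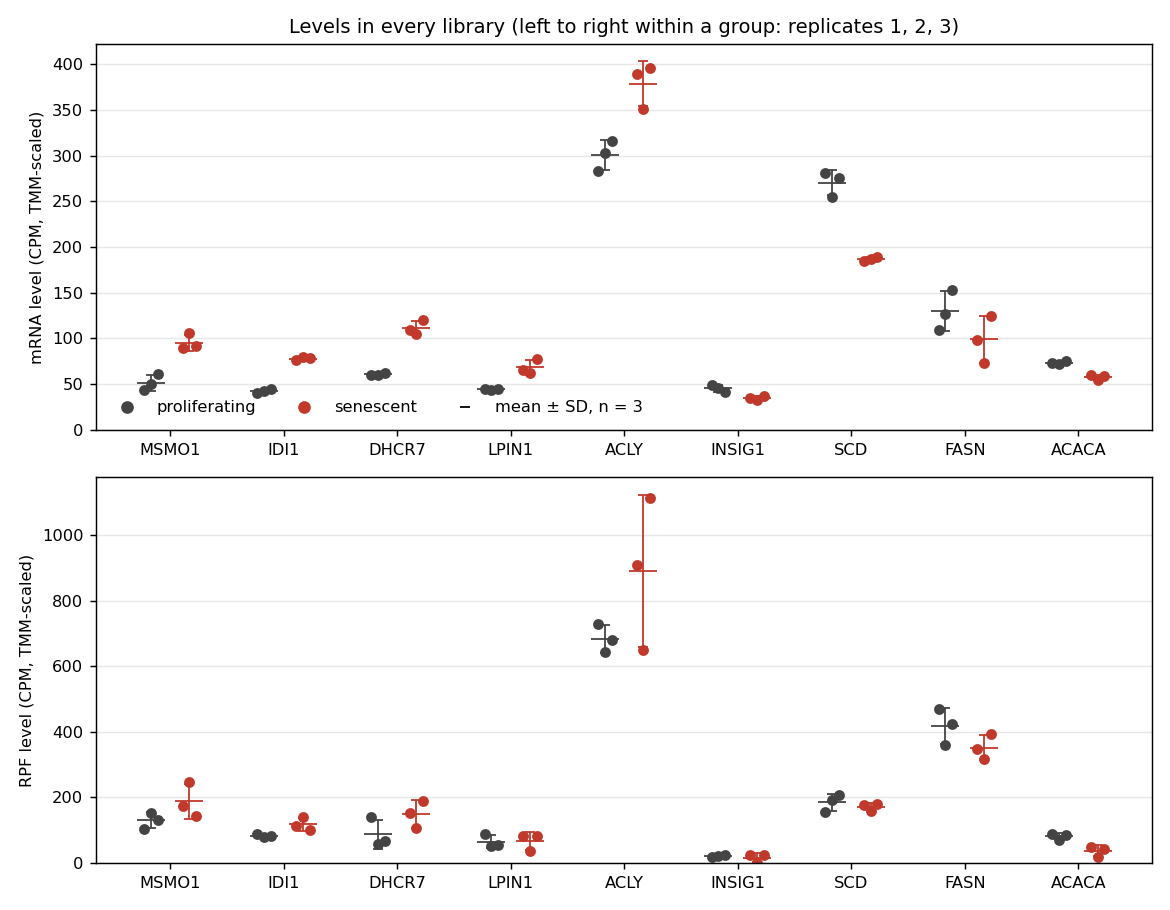
CPM of 9 members in every library, mRNA above and RPF below, on linear axes starting at 0. Points are libraries in the order of lysates 1, 2 and 3, black for proliferating and red for senescent, and lines give the mean ± SD of 3. MSMO1, IDI1 and DHCR7 are higher in every senescent RNA-seq library and SCD and ACACA lower in each, whereas RPF values of DHCR7, LPIN1 and ACLY overlap through Pro 1 or Sen 2.

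Among the regulators, SREBF1, SREBF2 and SCAP rose slightly in mRNA and INSIG1 fell. Counting all 4, 3 rose and 1 fell in mRNA, against 36.6% and 37.0% of all genes, and 2 rose and 0 fell in RPF, against 27.5% and 26.9%. Both RPF calls were lost when 1 lysate was left out. SREBF2 was at 166, 170.2 and 160.0 CPM and 197, 172 and 201 CPM in mRNA (0.20 ± 0.07 SE, adjusted p = 0.0232). Its footprints were at 52.1, 68.3 and 73.3 CPM and 105, 70.3 and 107 CPM (0.55 ± 0.20 SE, adjusted p = 0.0192), a call lost without Sen 1 (adjusted p = 0.157). With library totals the mRNA of SREBF2 was not called (0.09, adjusted p = 0.278). SCAP, the escort protein, had 75.4, 81.0 and 78.9 CPM and 95.1, 89.8 and 105 CPM of mRNA (0.30 ± 0.08 SE, adjusted p = 0.00167). SCAP footprints were 1.92-fold higher, with 17.4, 19.3 and 17.3 CPM against 33.5, 35.2 and 36.9 CPM and tight groups that did not overlap (0.94 ± 0.33 SE, adjusted p = 0.0154). These rested on 1, 13 and 29 reads against 50, 2 and 19 reads, and the call was lost without Pro 3 (adjusted p = 0.185).

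SREBF1 mRNA was at 23.3, 29.6 and 25.5 CPM and 33.5, 27.6 and 38.8 CPM, called but overlapping (0.33 ± 0.11 SE, adjusted p = 0.015), and Sen 3 carried much of it, the value without that lysate being 0.19 (adjusted p = 0.132). SREBF1 footprints had 0 reads in both shallow libraries and were not called (0.36 ± 0.29 SE, adjusted p = 0.328). INSIG1, which retains the SREBP and SCAP complex and is itself a well-known SREBP target, fell from 49.3, 45.7 and 41.1 CPM to 34.9, 33 and 37.2 CPM (-0.37 ± 0.09 SE, adjusted p = 0.000844). All 3 senescent values of INSIG1 lay below all 3 proliferating ones, the opposite direction to 15 of 18 sterol arm mRNAs. Its footprints, 1, 15 and 38 reads against 37, 0 and 12, gave no call (0.07 ± 0.34 SE, adjusted p = 0.884). INSIG2, the other gene for such a retention protein and not one of the 35 members, was looked up after its values were seen. Its mRNA rose, from 12.7, 14.1 and 15.4 CPM to 18.6, 20.6 and 15.6 CPM without overlap (0.38 ± 0.12 SE, adjusted p = 0.00844), and its footprints, at most 19 reads in a library, were not tested. The INSIG genes thus moved in opposite directions in mRNA.

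Both sterol transport genes rose in mRNA, against 36.6% of all genes called higher, and 1 of the 2 rose in RPF, against 27.5%. STARD4, a carrier of cholesterol between membranes, went from 28.2, 26.8 and 37.8 CPM to 42.8, 48.9 and 47.3 CPM (0.58 ± 0.11 SE, adjusted p = 5.48e-05). STARD4 footprints were at 0, 28.2 and 17.3 CPM and 36.2, 35.2 and 27.2 CPM (0.73 ± 0.33 SE, adjusted p = 0.0692), and the call was lost without Pro 3 (log2 fold change 0.39) or Sen 1 (0.49). ABCA1, the exporter of cellular cholesterol and a target of the sterol-sensing LXR receptors rather than of SREBPs, went from 16.6, 23.3 and 22.0 CPM to 28.5, 27.0 and 29.5 CPM (0.44 ± 0.11 SE, adjusted p = 0.0012). Its footprints, at 52.1, 68.3 and 63.8 CPM and 85.8, 70.3 and 79.7 CPM, did not overlap and missed the threshold narrowly (0.36 ± 0.21 SE, adjusted p = 0.156).

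The fatty acid arm divided by step. In mRNA 4 of its 11 members rose and 5 fell, or 36.4% and 45.5% against the 36.6% and 37.0% of all genes, and the median log2 fold change was -0.11. ACLY and ACSS2, which supply acetyl-CoA, AACS, which activates acetoacetate, and LPIN1, which acts in glyceride synthesis, all rose. Among the 7 that build, lengthen or desaturate the chain, ACACA, FASN, ELOVL6, SCD and FADS2 fell, 0 rose, and ELOVL5 and FADS1 were not called (adjusted p = 0.248 and 0.182). This grouping by step was made with the values known. Library totals without TMM gave 3 members higher and 7 lower in mRNA, AACS no longer being called (0.08) and ELOVL5 (-0.20) and FADS1 (-0.21) being called lower.

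ACLY, which cleaves citrate to cytosolic acetyl-CoA, had 283, 302 and 316 CPM of mRNA in proliferating and 389.7, 351 and 396 CPM in senescent cells (0.33 ± 0.07 SE, adjusted p = 0.000431). Its footprints were at 729, 643 and 680.2 CPM and 908, 650.5 and 1112 CPM (0.49 ± 0.17 SE, adjusted p = 0.0143), with Sen 2 inside the proliferating range. The RPF call of ACLY was lost without Pro 2, Pro 3 or Sen 3, the last giving a log2 fold change of 0.30. ACSS2, which makes acetyl-CoA from acetate, went from 49.1, 50.1 and 50.3 CPM to 66.8, 69.6 and 66.2 CPM in mRNA (0.44 ± 0.07 SE, adjusted p = 2.09e-05). ACSS2 footprints overlapped, at 121, 54.9 and 63.8 CPM and 89.8, 35.2 and 73.9 CPM, with a fit close to the threshold (0.39 ± 0.21 SE, adjusted p = 0.135) and with the call lost without Pro 2 (0.26), Pro 3 (0.41) or Sen 1 (0.16, adjusted p = 0.775). Its mean CPM was lower in the senescent group, through 7 reads in Pro 1 and 2 in Sen 2. AACS, which activates acetoacetate, stood at 41.5, 39.7 and 39.1 CPM and 45.1, 43.4 and 47.9 CPM in mRNA (0.18 ± 0.08 SE, adjusted p = 0.0521) and was not called without Sen 3 (0.13, adjusted p = 0.19). AACS footprints rose from 52.1, 47.5 and 59.0 CPM to 71.0, 87.9 and 73.9 CPM without overlap (0.40 ± 0.22 SE, adjusted p = 0.137), a call lost without any lysate but Sen 2, with 0.61 without Pro 3.

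ACACA, acetyl-CoA carboxylase, which commits acetyl-CoA to fatty acids, fell in both library types. Its mRNA was at 73.1, 72.3 and 75.0 CPM and 59.9, 54.7 and 58.6 CPM (-0.35 ± 0.07 SE, adjusted p = 0.00027). ACACA footprints fell further, from 86.8, 71.2 and 86.4 CPM to 49.6, 17.6 and 42.8 CPM (-0.80 ± 0.23 SE, adjusted p = 0.00263), and every senescent library was below every proliferating one. The fall stayed called with each lysate left out in turn. SCD, the desaturase that makes oleic from stearic acid, had the largest mRNA fall, from 281, 255 and 275 CPM to 185, 187 and 189 CPM (-0.53 ± 0.07 SE, adjusted p = 6.8e-07). SCD footprints, at 156, 191 and 206 CPM and 176, 158 and 179 CPM, overlapped (-0.16 ± 0.17 SE, adjusted p = 0.444).

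FASN, fatty acid synthase, was at 109, 127 and 153 CPM and 98.9, 73.7 and 125 CPM in mRNA, with overlap (-0.40 ± 0.13 SE, adjusted p = 0.011). Its senescent libraries disagreed, the value being -0.22 without Sen 2 and -0.61 without Sen 3, and DESeq2 did not call it (adjusted p = 0.19). Footprints of FASN stood at 469, 359 and 425 CPM and 346, 316 and 393 CPM (-0.16 ± 0.16 SE, adjusted p = 0.45). The desaturase FADS2 and the elongase ELOVL6 fell in mRNA by smaller amounts, -0.26 ± 0.07 SE and -0.17 ± 0.08 SE (adjusted p = 0.00284 and 0.0533). ELOVL6 was not called on CDS reads of the RNA-seq libraries alone (-0.18, adjusted p = 0.167). Their footprint values were 0.02 ± 0.17 SE and -0.31 ± 0.30 SE, and those of ELOVL5 and FADS1 were -0.03 ± 0.18 SE and 0.32 ± 0.24 SE, none of them called. LPIN1, the phosphatidate phosphatase whose product feeds triglyceride synthesis, had the largest rise of the arm, from 44.8, 43.5 and 44.6 CPM to 65.8, 61.9 and 77.9 CPM (0.63 ± 0.09 SE, adjusted p = 1.63e-06). LPIN1 footprints were at 86.8, 51.9 and 56.0 CPM and 81.7, 35.2 and 81.7 CPM (0.51 ± 0.22 SE, adjusted p = 0.0489), a call lost without Pro 2, Pro 3 or Sen 1. In RPF the arm had 4 calls higher and 1 lower among 11, or 36.4% and 9.09%, against 27.5% and 26.9% of all genes. The 4 calls higher became 0 without Pro 2, 0 without Pro 3, 1 without Sen 1 and 0 with DESeq2. Over all genes, those settings called 1713 of 7987, 1439 of 8018, 1402 of 8066 and 608 of 7521 higher.

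Set against each other, the sterol arm rose relative to the fatty acid arm in both library types. The median mRNA log2 fold change of the sterol arm exceeded that of the fatty acid arm by 0.56, against a spread between lysates of 0.07 (SD of the per-lysate difference of arm means). In RPF the difference was 0.42, against a spread of 0.17. Summed over its 18 genes, sterol arm mRNA came to 854, 826 and 901 CPM in proliferating and 1231, 1250.4 and 1221 CPM in senescent libraries, a ratio of means of 1.43. The sum over the 11 fatty acid arm genes was 1336, 1341 and 1423 CPM against 1316, 1233 and 1374 CPM, which overlapped. Sterol arm footprints summed to 1307 ± 59.1 CPM and 1805 ± 57.8 CPM (SD, n = 3) without overlap, and fatty acid arm footprints to 1999 ± 177 CPM and 2094 ± 328 CPM with overlap. The ratio of the sums, sterol over fatty acid, was 0.639, 0.616 and 0.634 in proliferating and 0.935, 1.01 and 0.889 in senescent RNA-seq libraries. In Ribo-seq it was 0.619, 0.676 and 0.672 against 0.878, 0.99 and 0.755. The 2 states did not overlap in either library type, also in the shallow libraries, where the sterol and fatty acid sums rested on 78 and 126 reads in Pro 1 and on 99 and 100 reads in Sen 2. These sums are not corrected for coding length and are compared between states only. No test was made on sums over listed genes.

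**Figure D3:**
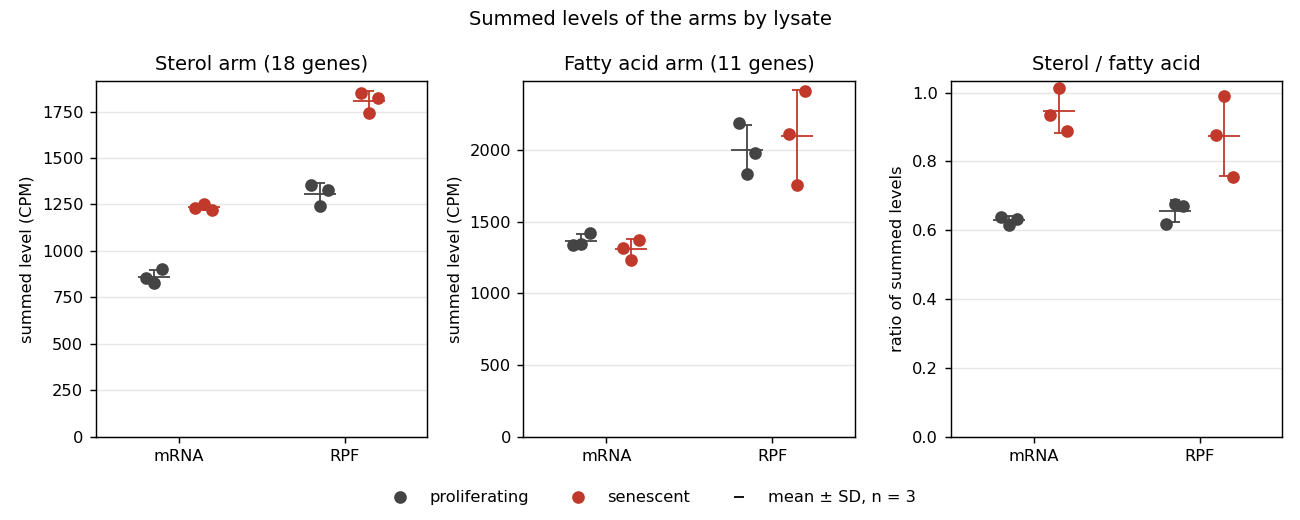
Summed CPM of the sterol arm (left) and the fatty acid arm (middle) and the ratio of the sums (right) in each lysate, for mRNA and RPF, on axes starting at 0. Points are lysates, black for proliferating and red for senescent, with the mean ± SD of 3. Sterol sums and ratios of the senescent lysates lie above all proliferating ones, from 0.755 to 1.01 against at most 0.676 for the ratios, while the fatty acid sums overlap.

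Per kilobase of coding sequence, footprint levels of proliferating cells ran in the sterol arm from 2.62 CPM per kb for HSD17B7 to 147 CPM per kb for MSMO1, and in the fatty acid arm from 11.4 CPM per kb for ACACA to 207 CPM per kb for ACLY. Next to MSMO1 stood FDFT1 at 131 ± 6.71 and FDPS at 110 ± 36.0 CPM per kb (SD, n = 3), which did not differ from MSMO1 at 147 ± 27.8 beyond their spread. ACLY, at 207 ± 13.1 CPM per kb, was followed by FADS2 at 185 ± 65.5, a gap within the spread, and by SCD at 171 ± 23.7. SCAP and SREBF1, at 4.69 and 7.72 CPM per kb, were among the lowest members. Coding lengths came from the GENCODE annotation given for GRCh37.

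Translational efficiency (TE), the RPF level relative to mRNA, was tested as the interaction of library type with state over all 12 libraries, with lysate as a block. Of 33 members tested, 0 were called, against 6.32% of 7473 genes called higher and 3.73% called lower, while 5 members had an unadjusted p under 0.05. DESeq2 and limma-voom called 0 members as well, but called few genes at all (0.0803% higher and 0.294% lower with DESeq2, 0.254% and 0.375% with voom), so their counts of 0 are no result about the members. The 5 were SCAP, LSS, DHCR7, SCD and MSMO1. SCAP had log2 TE values of -1.54, -2.02 and -2.17 in proliferating and -1.49, -1.03 and -1.46 in senescent lysates (0.69 ± 0.32 SE, adjusted p = 0.223). SCD had -0.77, -0.41 and -0.42 against -0.07, -0.16 and -0.07 (0.40 ± 0.18 SE, adjusted p = 0.209). Neither overlapped between the states. The same held for AACS, which was higher (0.23 ± 0.25 SE, adjusted p = 0.651). It also held for CYP51A1 (-0.21 ± 0.18 SE, adjusted p = 0.546) and ACACA (-0.45 ± 0.24 SE, adjusted p = 0.301), which were lower. How many of all genes lay apart in TE was not counted, so this is no result about the members. DHCR7 and LSS, with changes of 0.45 ± 0.21 SE and 0.43 ± 0.20 SE, and MSMO1, with -0.41 ± 0.19 SE, overlapped (adjusted p = 0.223, 0.222 and 0.23). Median TE changes were 0.18 in the sterol arm and 0.19 in the fatty acid arm, so the arms differed by -0.01 with a spread between lysates of 0.11. MSMO1 was called without Pro 1 (-0.48, adjusted p = 0.114), and DHCR7 was called without both shallow lysates (0.53, adjusted p = 0.0976). At the footprint depth of these libraries the median SE was 0.21 in the sterol arm. TE changes well above that size were not called, among them SCAP and PMVK (0.61 ± 0.34 SE, adjusted p = 0.32). The count of 0 calls therefore does not show that TE was unchanged.

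Across the 33 genes tested in both layers, mRNA and RPF values had the same sign in 29 (87.9%, against 79.5% of all 7473 genes tested in both), and 19 were called in both in the same direction (57.6%, against 45.4%). For 10 members (30.3%, against 29.8%) the call was made in mRNA alone, for 0 in RPF alone (against 6.85%) and for 0 in opposite directions (against 1.90%). Both values come from the same lysates. MSMO1 was the clearest case of a large mRNA rise, 0.89 ± 0.10 SE, beside a smaller RPF value, 0.27 ± 0.17 SE, and SCAP and PMVK lay on the other side, with 0.30 ± 0.08 and 0.22 ± 0.09 SE in mRNA beside 0.94 ± 0.33 and 0.84 ± 0.32 SE in RPF.

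**Figure D4:**
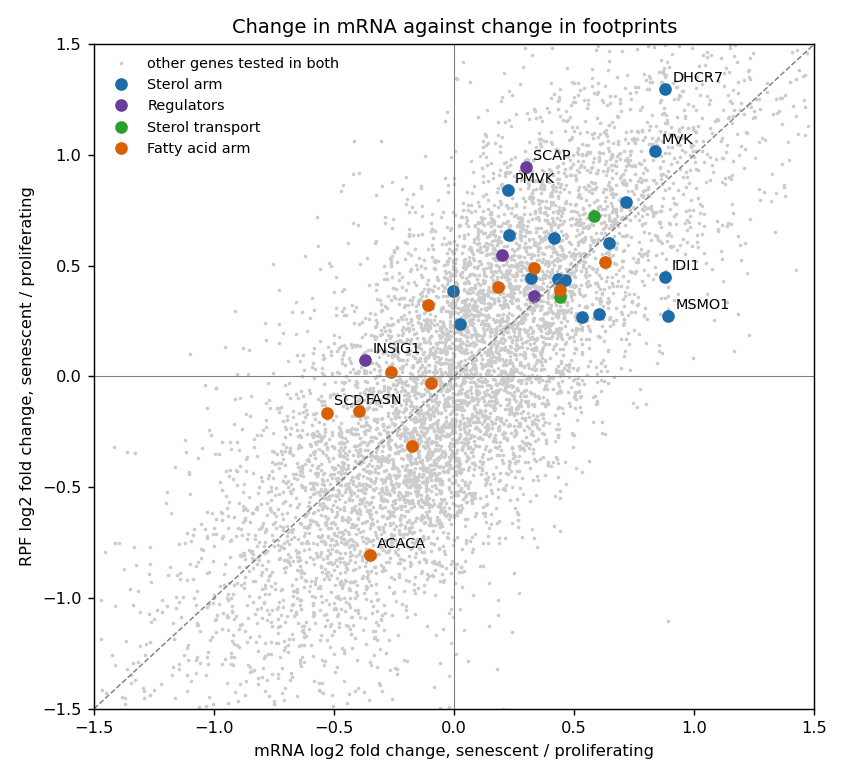
Log2 fold change in mRNA (horizontal) against RPF (vertical), senescent over proliferating, for members in colour by role and all other genes tested in both in grey, with a dashed line of equal change. Axes stop at 1.5 on either side. Sterol arm genes lie in the upper right or near the vertical axis, fatty acid arm genes lie on both sides of 0, and 29 of 33 members have the same sign in both.

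Read shares within the mRNA gave a measure that the list did not use. The 3′ UTR share of RNA-seq reads rose in 17 members and fell in 17, FDPS having 0 reads there. Summed over the reads of all genes, that share rose without overlap, from 25.1, 24.6 and 24.9% to 26.8, 28.8 and 27.0%. Among members the 3′ UTR share lay apart between the states in 1 upward (FASN) and 2 downward (SQLE and DHCR7), against 8.68% and 4.17% of 12725 genes. The DHCR7 share was 26.8, 24.5 and 24.5% in proliferating and 23.0, 24.0 and 23.3% in senescent libraries, and the FASN share 5.57, 6.81 and 4.35% and 6.94, 7.55 and 8.61%. The SQLE share, at 1.71, 1.37 and 1.52% and 0.417, 1.03 and 0.782%, rested on 50 reads in all. The 5′ UTR share lay apart in 0 members upward and 3 downward (MVD, IDI1 and FASN), against 3.72% and 6.03% of genes. In IDI1 it was 6.87, 8.30 and 6.95% against 4.46, 3.07 and 4.66%, on 202 reads in all. Counts of 1 to 3 among 35, read against those shares, are no result about the members.

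Exons of other annotated genes cover parts of some members, and the strand rule of the counting is not given in the sources used here, so reads of such partners cannot be told apart. Genes on the opposite strand cover 37.7% of the exonic bases of HMGCS1, 22.2% of ACAT2 (SOD2 and TCP1 among them), 18.6% of FDPS (RUSC1-AS1) and 15.0% of IDI1 (IDI2-AS1). Genes without a symbol on the same strand cover 68.2% of CYP51A1 and 36.4% of EBP. Calls on CDS reads of the RNA-seq libraries alone also had IDI1, HMGCS1, FDPS and CYP51A1 higher, ACAT2 was then called (log2 fold change 0.15, adjusted p = 0.143), and the call of ELOVL6 was lost, which left 4 fatty acid arm genes lower.

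Other genes of the pathway, from a list wider than the members, did not show the contrast between the arms at the size seen in the members. Their median log2 fold changes were 0.31 for sterol and 0.27 for fatty acid genes in mRNA and 0.17 and 0.22 in RPF, whereas the arms of members differed by 0.56 and 0.42. This difference between the lists was not tested. Of 15 further sterol genes 14 were tested in mRNA, 9 rose (64.3%) and 4 fell (28.6%), against 36.6% and 37.0% of all genes, and of 10 tested in RPF 5 rose (50%) and 3 fell (30%), against 27.5% and 26.9%. The highest mRNA changes were in MYLIP, a ligase that removes lipoprotein receptors (1.35 ± 0.29 SE), and NPC1, which exports cholesterol from lysosomes (1.14 ± 0.09 SE). The lowest were in LBR, a lamina protein with sterol reductase activity (-1.58 ± 0.09 SE), and the LXR gene NR1H3 (-1.54 ± 0.17 SE). Of 20 further fatty acid genes 19 were tested in mRNA, 10 rose (52.6%) and 4 fell (21.1%), and of 14 tested in RPF 6 rose (42.9%) and 1 fell (7.14%), against the same shares of all genes. SCD5 and FADS3, paralogs of the members SCD and FADS2, rose most, SCD5 from 20.6, 24.4 and 23.6 CPM to 121, 123 and 124 CPM (2.41 ± 0.08 SE, adjusted p = 2.44e-16) and FADS3 by 1.03 ± 0.07 SE. SCD5 footprints rose as well, from 17.4, 23.7 and 24.4 CPM to 172, 105 and 169 CPM (2.79 ± 0.22 SE, adjusted p = 4.96e-18), so that the desaturase paralogs SCD and SCD5 moved in opposite directions in mRNA. GPAM, an acyltransferase that starts glyceride synthesis, and HACD3, a dehydratase of chain elongation, fell most (-0.55 ± 0.12 SE and -0.45 ± 0.07 SE). In TE, GGPS1, which makes geranylgeranyl pyrophosphate, was called lower (-1.24 ± 0.40 SE, adjusted p = 0.0695).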

How the data were processed

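Ribo-seq and poly(A) RNA-seq libraries of proliferating and senescent IMR90 (3 lysates each) were grouped by their sample labels. The deposited tables list, for 38716 symbols, the reads in CDS, both UTRs and further classes, as counted by the authors. Their unit was read as an expected count, since most deposited values were whole and the rest were fractions of a read, although plain counts had been assumed when the tests were planned. The submitters' processing notes name cutadapt 1.18, Bowtie 1.0.1, SAMtools 1.8 and DESeq2 1.22.2, and the genome build, annotation release, strand rule and handling of reads with several placements are not given in the sources used here.

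Regions were summed, rounded to whole numbers and tested over all genes with edgeR 4.0.16 (R 4.3.3), with TMM factors, filterByExpr, the quasi-likelihood test and Benjamini-Hochberg adjustment, called under 0.15. RNA-seq and Ribo-seq were fitted separately with 3 against 3 libraries, and translational efficiency as an interaction over 12 libraries with lysate as a block. The log2 TE of a lysate was computed with a pseudocount of 0.5 reads. The procedure was tested on simulated data. Alternatives used DESeq2 1.42.0, limma-voom (limma 3.58.1), other scalings and filters, a replicate block and omission of lysates. p-values measure the spread between these lysates. Every member was named, with values in every library for members called in RPF and for the highest and lowest of each arm, and of the further genes at most the 2 highest and 2 lowest called. The members, lists and tests were chosen with earlier results of these data known. Promoter sequences and start sites came from RefSeq (GRCh38.p14), and no coordinates of the deposited data were used.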

Additional observations from a re-analysis of the deposited data

How the results depend on the processing

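Over 35 members, 544 of 560 mRNA values, 371 of 465 RPF values and 555 of 564 TE values kept their direction and their side of the 0.15 threshold under the alternatives run. In mRNA 12 calls were lost and 4 gained, and in TE 9 were gained. In RPF 82 calls were lost with the sign kept and 9 were gained. A further 3 RPF calls were lost with a change of sign, those of NSDHL without Sen 1 and of NSDHL and ACSS2 with the replicate block. The cause of these changes was not tested. Members called in RPF (19 as reported) numbered 1 with DESeq2, 2 of the 3 still tested when 10 counts were required in each library, and 9 to 20 without single lysates. Over all genes, DESeq2 called 608 higher and 556 lower of 7521, and the filter at 10 counts gave 295 and 315 of 828. Without single lysates, calls over all genes ran from 1402 to 2269 higher and from 1279 to 2452 lower. The sterol arm RPF count (11) was 1 with DESeq2 and 6 to 11 without single lysates, and the filter at 10 counts left none of this arm. Fatty acid arm genes called higher in RPF (4) numbered 2 at an adjusted p under 0.05, with RLE factors, with voom or with genes of at least 1 read, 1 with library totals or the filter at 10 counts, 0 with DESeq2 and 0 to 4 without single lysates. Those called lower (1) numbered 0 with DESeq2 and 3 with library totals. The count of TE calls (0) was 1 with library totals (MSMO1, -0.47), 1 without Pro 1 and Sen 2 and 0 to 1 without single lysates. It was 6 of 33 without the lysate block (PMVK, LSS, MSMO1, DHCR7, SCAP and SCD). That setting called 771 of all 7473 genes higher and 568 lower, so these 6 are no result about the members. The TE difference between the arms was -0.15 with voom. The RPF value of NSDHL ran from -0.14 (without Sen 1) to 0.94 (without Pro 3). Library totals gave 3861 genes higher and 5689 lower in mRNA (40.4% of calls higher) and 1650 higher and 2575 lower in RPF (39.1%), against 4684 and 4729, and 2066 and 2022, with TMM.

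Samples with the same replicate number did not deviate together across states (correlations of 0.01, -0.07 and 0.09 in mRNA and 0.04, 0.04 and 0.01 in RPF), not every sample correlated best with its own number, and the numbers were not taken as pairs. With the replicate block, 7 of 33 members were called in RPF, 4 in the sterol arm and 1 higher in the fatty acid arm. Over all 7521 genes it called 1207 higher and 1129 lower, against 2066 and 2022 without it. With this block NSDHL was at -0.092 and ACSS2 at -0.020.

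Depth limits single footprint values in the shallow libraries, and the make-up of the Ribo-seq libraries differed too. Of all reads listed for a library, CDS held 34.35% in Pro 1, 14.98% in Sen 2 and 54.7% in Sen 3. In Pro 2, Pro 3 and Sen 1 it held 84.35%, 88.82% and 77.81%. Of reads in CDS and UTRs, 5′ UTRs held 44.7% in Sen 2, 13.8% in Sen 3 and at most 10.1% elsewhere. What this did to the values of members was not tested beyond leaving lysates out. The 54421 and 54708 CDS reads of Pro 1 and Sen 2 gave at most 42 footprints to any member, and TM7SF2 and HSD17B7 could not be tested in RPF.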
